A study of Mus musculus with 35 samples.

Results

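The gene-desert peaks described here are sites of NELFA enrichment in mouse embryonic stem cells that lie far from any annotated gene. They were chosen by position alone from a single deposited list of peaks: an autosomal summit outside every RefSeq gene, over 50 kb from the nearest gene start or end, in a fixed 1 Mb window holding under 30 peaks of the list. The rule selected 3988 of the 59485 peaks (6.7%), which is 7.05% of the 56528 autosomal peaks and 17.3% of the 23044 autosomal peaks in such sparse windows. The peaks were thus selected on the positions of peaks and the number of peaks around them, and the fold enrichments come from the same immunoprecipitation. All values below are therefore a description, and no difference was tested.

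The cells were E14, a mouse embryonic stem cell line, cultured in serum with LIF and the 2i inhibitors and carrying NELFA with a Strep-HA tag under a doxycycline-inducible promoter. All 7 ChIP libraries came from cells given 0.4 µg/ml doxycycline for 16 h and fixed with 1% formaldehyde. There were 3 libraries with a first HA antibody, 1 with a second HA antibody and 3 inputs, from 3 replicates, and 1 peak list was used for them. The list has no column per library, so replicates could not be compared and the spread between them is unknown. The labels used here name no ChIP library from uninduced cells or cells without the tag, so every peak is from cells expressing added NELFA. The series holds 28 other libraries, of RNA and of open chromatin, which were not analysed here.

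NELFA belongs to the negative elongation factor (NELF), a protein complex that holds RNA polymerase II shortly after it has started transcription. The complex is therefore best known at promoters, and also at enhancers that are transcribed. Gene deserts are long stretches without protein-coding genes. They can hold distant enhancers of developmental genes, and much of their sequence is interspersed repeats, copies of transposable elements to which short reads are hard to assign. The sequence and repeat content of these peaks were not analysed here.

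Gene-desert territory, the ground that satisfies the same rule on distance and window, measured 367 Mb, or 15.0% of the 2442 Mb of autosomes covered. It held 94.4% of all ground over 50 kb from genes. The remaining 21.8 Mb lay in dense windows, those with 30 or more peaks. The 3988 peaks were spread over 858 of the 2051 sparse windows that contained any peak, and a gene-desert peak had a median of 14 peaks in its window, itself included. Assembly gaps were not removed, so densities per Mb are lower bounds where a desert contains a gap.

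Most gene-desert peaks were weak and narrow, as were most autosomal peaks of the list. Fold enrichment over background, as the authors' peak caller gave it, had a median of 2.09 with quartiles of 1.95 and 2.41, and ranged from 1.77 to 19.3. A fold of at least 3 was reached by 391 peaks, or 9.8% (95% Wilson interval 8.92 to 10.8, counting error only). The share over all autosomal peaks was 13.9%, so strong peaks made up a smaller part of the gene-desert peaks than of the list. At a fold of at least 5 there were 54 peaks (1.35%), against 2.92% of autosomal peaks, and only 6 reached 10. The median width was 157 bp, with quartiles of 91 and 279 bp. Widths of at least 1 kb occurred in 59 peaks (1.48%), against 4.19% of autosomal peaks. In sparse windows the share was 2.71% in gene interiors, 2.17% outside genes at 1 to 50 kb and 1.41% within 1 kb of a gene start or end. The median −log10 q was 3.31, and 36.7% of the peaks had a −log10 q of at least 4. Over all autosomal peaks the medians were 2.09 for fold, 169 bp for width and 3.31 for −log10 q.

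Against the other peaks of sparse windows, the desert peaks had much the same typical strength, and fewer of them reached a fold of 3 or 5. The median fold was 2.09 also for the 7533 peaks in gene interiors and for the 8606 peaks outside genes at 1 to 50 kb from them, and 2.13 for the 2917 peaks within 1 kb of a gene start or end. A fold of at least 3 was found in 12.8% of interior peaks, 11.1% of the peaks at 1 to 50 kb and 12.2% of the peaks at gene ends. A fold of at least 5 was found in 2.76%, 1.78% and 1.89% of them. The Wilson intervals at fold 3 lay above that of the desert peaks for interior peaks (12.1 to 13.6%) and for peaks at gene ends (upper bound 13.4%), and overlapped it for peaks at 1 to 50 kb (10.4 to 11.7%). A fold of at least 10 was reached by 6 desert peaks, 36 interior peaks, 26 peaks at 1 to 50 kb and 3 at gene ends. At a fold of at least 10.067 the shares were 0.15%, 0.48%, 0.30% and 0.10%, in that order. Desert peaks thus stayed below interior peaks and peaks at 1 to 50 kb, and above only the peaks at gene ends, whose highest fold was 11.4. Per Mb of their own ground, desert peaks numbered 10.9, more than interior peaks (8.08), fewer than peaks at 1 to 50 kb (12.7) and under those at gene ends (24.1). Ground over 50 kb from genes in dense windows carried 48.3 peaks per Mb, a contrast that the limit on peaks per window sets.

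**Figure D1:**
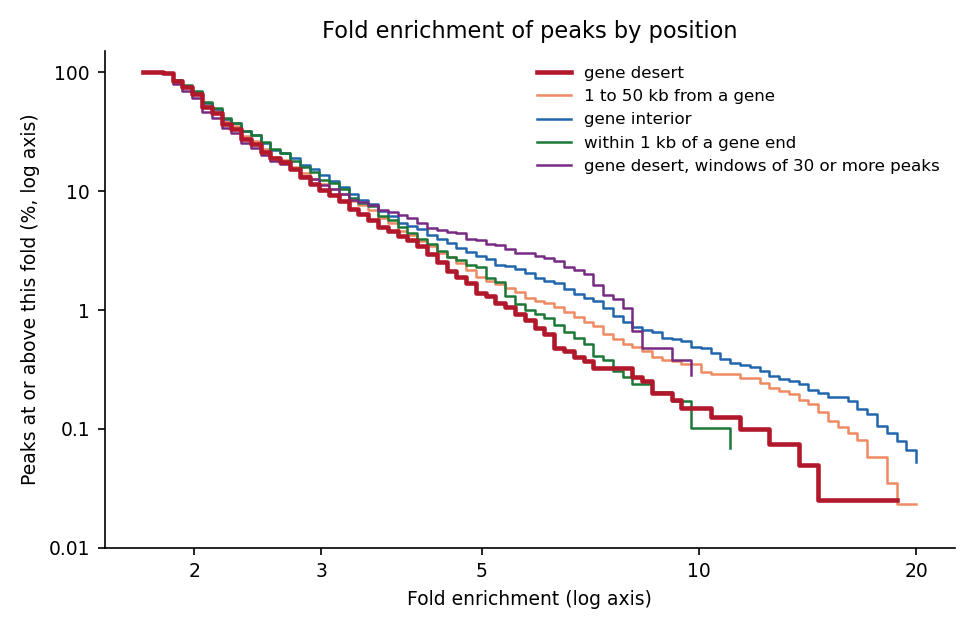
Share of peaks (%, log axis) at or above each fold enrichment (log axis), for gene-desert peaks in sparse windows, 3 other positions in sparse windows and gene-desert peaks in dense windows. The medians run from 2.04 (gene-desert peaks in dense windows) to 2.13 (within 1 kb of a gene end), with 2.09 for gene-desert peaks in sparse windows. The curve of gene-desert peaks in sparse windows lies lowest at a fold of 5, where it is at 1.35%.

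The limits of the rule fell among peaks of like strength. The 3 peaks just inside the distance limit, at 50027, 50029 and 50041 bp from a gene, had folds of 2.45, 1.86 and 2.36. The 3 just outside it, at 50000, 49977 and 49963 bp, had folds of 1.86, 3.0 and 2.22. Windows of 29 peaks held 29 gene-desert peaks with a median fold of 2.09. Windows of 30 peaks, just excluded, held 42 peaks over 50 kb from genes, also with a median of 2.09.

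The fold enrichments took few distinct values. In 3970 of the 3988 peaks (99.5%) the fold was a whole number of steps of 0.0454, to within 0.002 of a step, and only 102 different folds occurred among them. Each of these folds, together with its −log10 p, was matched by a whole-number pileup plus 1 over a common background of 21.0 plus 1, with p as the upper tail of a Poisson distribution. The largest deviation in −log10 p was 0.0002. A pileup here is the stack of fragments at the summit in the caller's own units, and whether 1 unit is 1 fragment is not given in the sources used here. The weakest peaks stood at a pileup of 38, the median peak at 45 and the highest of this kind at 424. If 1 unit is 1 fragment, a Poisson interval around a pileup of 45 is 32.8 to 60.2, equal to folds of 1.54 to 2.78. On that condition, folds of typical peaks cannot be ordered within that range by counting alone. The 8 most common folds, from 1.82 to 2.13, held 2354 peaks (59.0%).

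The other 18 peaks were scored against a higher background. Solving fold and −log10 p together gave them backgrounds from 22.7 to 1556 with a median of 52.6. Their folds ran from 2.54 to 12.2 with a median of 5.47, and 12 of the 18 reached a fold of 5, although they make up 0.451% of the gene-desert peaks. The corresponding share was 1.88% of all autosomal peaks. In sparse windows it was 0.617% at gene ends, 0.779% at 1 to 50 kb and 1.05% in interiors, and for desert peaks in dense windows it was 3.43%. In 13 of the 18 no other peak of the list lay within 10 kb. Beyond 4 of them the chromosome carries no further annotated gene on 1 side, a position that only 27 of the 3988 peaks share. Those 4 include the peak at chr1:195371740-195371955 (fold 5.04, background 338) past Vmn2r-ps1, and the peak at chr14:124801573-124802218 past Fgf14.

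**Figure D2:**
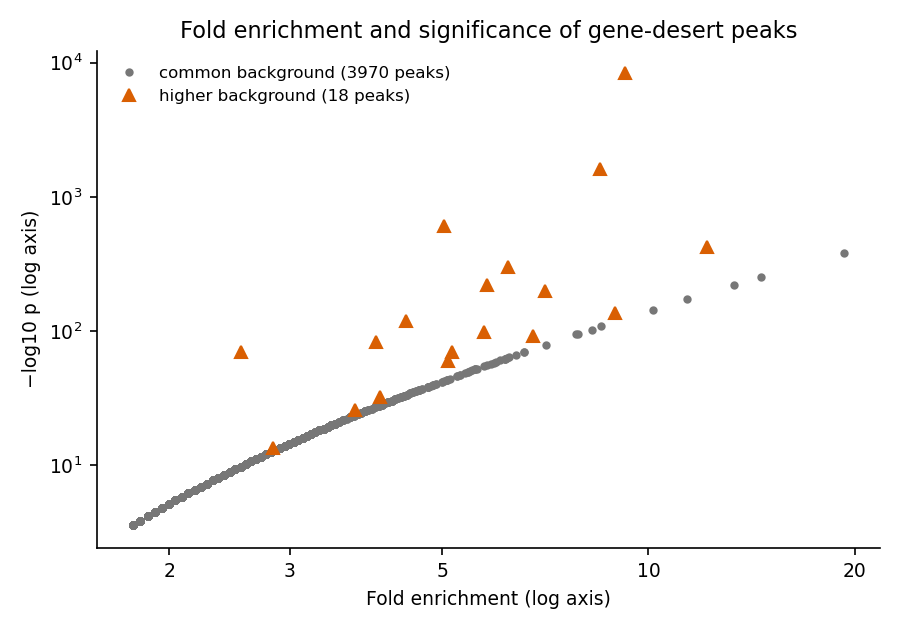
Fold enrichment against −log10 p (both log axes) of the 3988 gene-desert peaks, with circles for the 3970 scored over the common background and triangles for the 18 scored over a higher one. The circles fall on 1 curve by definition, since a match to the common background selects them. The triangles lie above it, up to a −log10 p of 8334.

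Of the 12 strongest gene-desert peaks, 8 had no other peak within 10 kb, and most lay beside noncoding genes and pseudogenes. They were wider than typical gene-desert peaks, with 10 of the 12 above the median width of 157 bp and 7 above the upper quartile of 279 bp. The strongest, chr18:56303379-56303612 in mm10, was 234 bp wide with a fold of 19.3 and a pileup of 424. It had no other peak within 10 kb and lay between the snoRNA gene Gm23555, 110 kb away, and the pseudogene Gm18527, 75.5 kb away. Its nearest protein-coding gene was Gramd3, at 84.0 kb. The next, chr12:15253538-15254013, had a fold of 14.6 and also stood alone, between Gm40284 (116 kb) and Gm17915 (328 kb). Trib2, which encodes a pseudokinase, was its nearest coding gene at 538 kb. Both peaks were scored over the common background of 21.0.

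A second peak on chromosome 18, chr18:14103217-14103398, had a fold of 13.3 between the noncoding RNA genes 6330525I24Rik and 8430422H06Rik. Zfp521, a zinc-finger transcription factor gene, was 131 kb away. The peak chr1:157877254-157877720 had a fold of 12.2 from a pileup of 607 over a background of 49.0. It lay between Gm51655 and Gm51855, 309 kb from Sec16b, whose product acts at exit sites of the endoplasmic reticulum. The peak chr12:10961511-10962982 had a fold of 11.4 and was the only one of the 12 wider than 1 kb, at 1472 bp. Its neighbours were the pseudogene Pgk1-rs7 (62.5 kb) and 7420701I03Rik (85.0 kb), and the potassium channel subunit gene Kcns3 was 127 kb away.

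Only 1 of the 12 lay between protein-coding genes on both sides. The 80 bp peak chr9:27213178-27213257, with a fold of 10.2, was 57.8 kb from Jam3, a junctional adhesion molecule gene, and 85.9 kb from Igsf9b, an immunoglobulin superfamily gene. It was the weakest of the 6 peaks at a fold of 10 or more. The peak with the largest pileup of all had only the seventh highest fold. At chr14:124801573-124802218 the fold was 9.24 from a pileup of 14394 over a background of 1556, and the −log10 p was 8334. It lay 124 kb beyond Fgf14, an intracellular fibroblast growth factor homologue that modulates sodium channels, with no gene after it on the chromosome.

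The remaining 5 had folds from 7.9 to 8.94, and each stood alone within 10 kb. The peak chr13:39163428-39163618 (fold 8.94, background 24.9) lay between 5033403F01Rik and Gm32243, 203 kb from the nucleotide-sulfate transporter gene Slc35b3. The peak chr2:64730441-64730804 (8.53) lay between the pseudogenes Gm13576 and Gm13578, 182 kb from Grb14, an adaptor of the insulin receptor. The peak chr3:5860354-5860810 (8.5) combined a pileup of 2922 with a background of 343, between Gm8797 and Gm46796 and 282 kb from the peroxisome biogenesis gene Pex2. These 3 stood at different depths of background although their folds were close. The peak chr3:97462252-97462645 (8.26) was 51.3 kb from the olfactory receptor gene Olfr1402 with Gm40102 on its other side. The peak chr16:5709171-5709248 (7.9) lay between Gm41416 and Rbfox1, a splicing regulator of neurons and muscle, 176 kb from Rbfox1.

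Peaks were sparser farther from genes, while their strength was similar at all distances up to 500 kb. The nearest gene was at a median of 96.2 kb, with quartiles of 67.9 and 159 kb and a maximum of 727 kb. Density fell from 12.8 peaks per Mb at 50 to 75 kb (1301 peaks) to 11.6 at 75 to 100 kb, 10.2 at 100 to 150 kb, 10.8 at 150 to 250 kb and 9.59 at 250 to 500 kb. Beyond 500 kb there were 24 peaks in 15.4 Mb, or 1.56 per Mb (95% Poisson interval 1.0 to 2.32, counting error only). That last step is large, but stretches over 500 kb from any gene can include assembly gaps, whose part in it was not tested. The share of peaks with a fold of at least 3 was 9.92% in the nearest of these ranges and 9.3% at 250 to 500 kb, and the median fold stayed between 1.95 and 2.09.

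**Figure D3:**
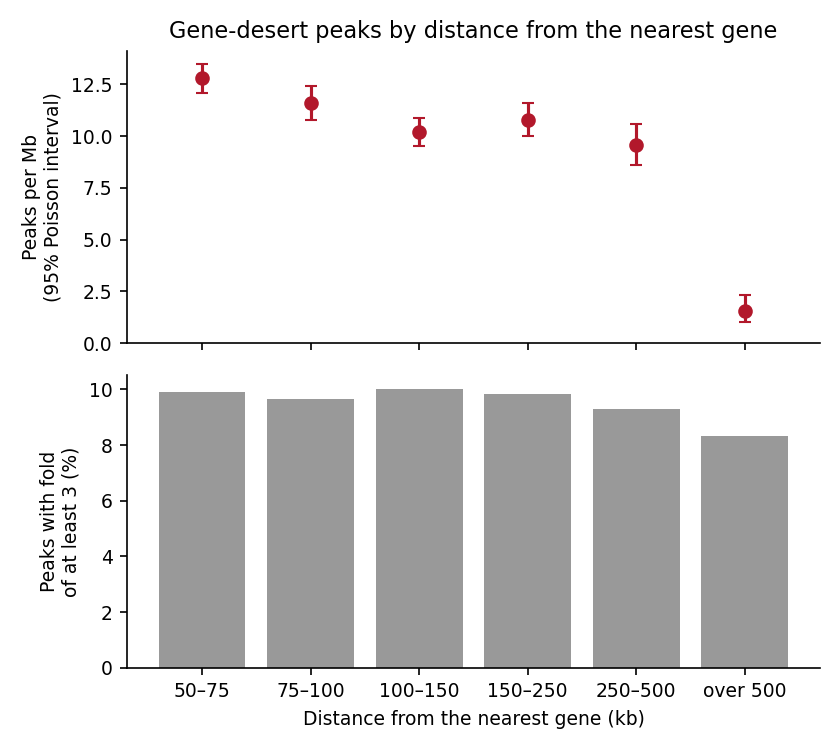
Upper panel, gene-desert peaks per Mb of gene-desert ground with 95% Poisson intervals, and lower panel, share of those peaks with a fold of at least 3 (%), by distance from the nearest gene (kb). Density falls from 12.8 to 9.59 per Mb up to 500 kb and is 1.56 beyond it, while the share stays between 8.33 and 10.0%.

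The 3 peaks farthest from genes were weak and alone. The peak chr4:29937196-29937280 lay 727 kb from the nearest gene and 970 kb from Epha7, an ephrin receptor gene, with a fold of 1.91, between Gm11919 and 4930556G01Rik. The peak chr15:15055544-15055607 had the same fold of 1.91 between Gm9630 and 4930557F08Rik, 589 kb from a gene and 1673 kb from the cadherin gene Cdh9. The peak chr14:91803027-91803073, between Gm7272 and Gm24127, had a fold of 1.95 at 565 kb from a gene and 1211 kb from the protocadherin gene Pcdh9.

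The density of gene-desert peaks differed between chromosomes. It ranged from 4.78 per Mb on chromosome 19 (29 peaks, Poisson interval 3.2 to 6.87) to 14.7 on chromosome 6 (210 peaks, 12.8 to 16.9), with a median of 11.2. Chromosomes 7, 15 and 17 were also low, at 6.92, 7.72 and 7.72. Chromosome 1 held the most peaks, 395, at 10.4 per Mb. On chromosomes 6 and 8 only 65.6% and 71.8% of the ground over 50 kb from genes lay in sparse windows, against 94.2 to 99.7% on the others. With dense windows included, the density of desert peaks rose to 29.3 per Mb on chromosome 6, 22.4 on chromosome 8 and 19.9 on chromosome 13. The rule thus leaves out the most crowded deserts of those chromosomes.

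Strength also varied by chromosome. The share of gene-desert peaks with a fold of at least 3 was lowest on chromosomes 8 (3.48%) and 6 (4.76%), highest on chromosome 18 (18.8%), and 10.3% at the median. Both the first and the third strongest peaks were on chromosome 18. The first 10 Mb of the chromosomes, next to the centromere in the mouse, held 269 gene-desert peaks at 5.53 per Mb, against 11.7 per Mb farther along. Ground was counted only from the first gene or peak of each chromosome, so a gap before that point is not included. Assembly gaps after it were not removed, and their part in the lower density was not tested.

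**Figure D4:**
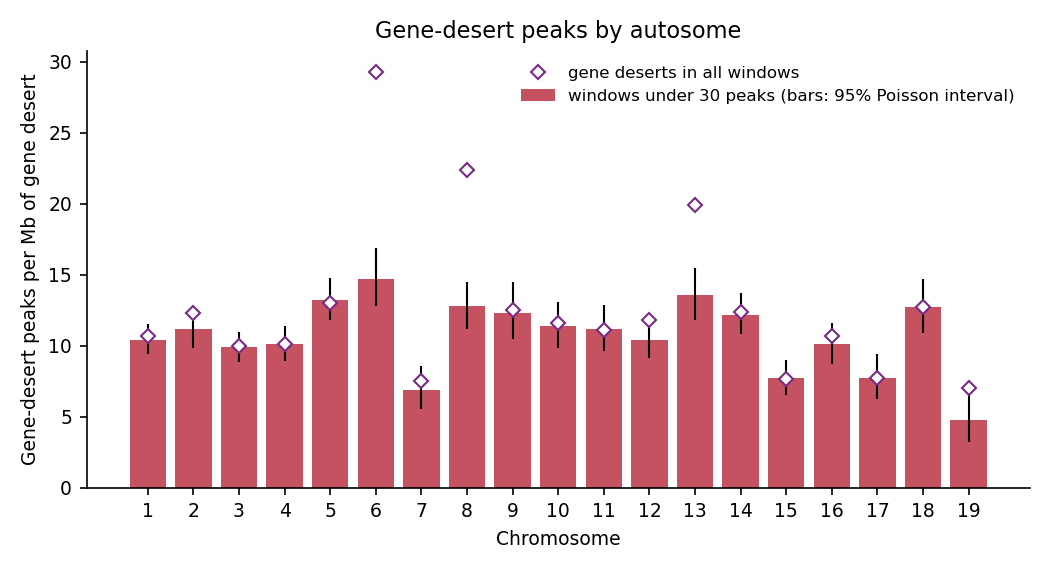
Gene-desert peaks per Mb of gene-desert ground on each autosome, with bars for sparse windows, lines for their 95% Poisson intervals and diamonds for sparse and dense windows together. Bars range from 4.78 on chromosome 19 to 14.7 on chromosome 6, and diamonds stand well above the bars on chromosomes 6, 8 and 13.

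Peaks were unevenly shared among deserts, the gaps between neighbouring genes. Of 2595 deserts with ground satisfying the rule, 1137 (43.8%) held a gene-desert peak and 1458 held none. A desert with peaks had a median of 2 and at most 25, and 422 had a single peak. Among the 117 deserts with at least 0.5 Mb of such ground, 16 had none, and the median density was 7.63 per Mb. The largest count, 25, was found in a pair of deserts. On chromosome 6 it was the gap from 26766896 to 27205018, between Gm30779 and Gm38778 and, farther out, between Pot1a, which encodes a telomere-binding protein, and Grm8, a metabotropic glutamate receptor gene. Folds there ran from 1.82 to 3.54 and only 1 peak reached 3. On chromosome 11 it was the gap from 91831389 to 92769979 between Gm11498 and Gm11500, with the kinesin gene Kif2b and the carbonic anhydrase-related gene Car10 as flanking coding genes. Of its 25 peaks 5 reached a fold of 3, up to 4.4, and 10 belong to a chain of close peaks spanning 6.0 to 6.5 kb, which leaves 15 without it.

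There were 22 peaks between Spin3-ps and 4930412E21Rik on chromosome 3, flanked by Tbl1xr1, a subunit of nuclear corepressor complexes, and Naaladl2. Among the large deserts, a gap on chromosome 18 had 32.6 per Mb (19 peaks). It lies between Fbxo15 and Gm32291, toward Neto1, a glutamate receptor auxiliary subunit gene. Fbxo15 encodes an F-box protein and is a known marker gene of embryonic stem cells. Another on chromosome 11, between 4930405D11Rik and Gm38950 and flanked by Tom1l1 and Kif2b, had 28.3 per Mb (16 peaks). Median folds in all these deserts lay between 2.04 and 2.22, close to the 2.09 of all gene-desert peaks.

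The gene nearest to a gene-desert peak was seldom protein-coding. It was a pseudogene for 41.3% of the peaks, a lncRNA gene for 28.2%, a protein-coding gene for 17.7% (705 peaks), a snoRNA gene for 6.19% and a snRNA gene for 4.39%. The nearest protein-coding gene lay at a median of 299 kb (quartiles 141 and 624 kb), and 835 coding genes were the nearest of at least 1 peak. Being nearest does not show that a gene is controlled from the peak.

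Genes of a list labelled neural adhesion and synapse were often the nearest coding genes, in proportion to the ground nearest to them. For gene-desert peaks as a whole, the nearest gene of any kind was usually a noncoding gene or pseudogene, on either side of the peak. Of the 3988 peaks 795 (19.9%) had a gene of this list as the nearest coding gene. The same genes were nearest to 19.9% of gene-desert ground, which gives 10.9 peaks per Mb. The protocadherin gene Pcdh7 had 39 peaks at 102 to 1527 kb with folds of 1.82 to 3.22. Cntnap5a, a contactin-associated protein gene, had 32 peaks with folds up to 4.49, and Grm8 had 27, up to 3.54. Of the 32 peaks of Cntnap5a, 7 belong to the 6359 bp chain chr1:114603483-114609841, which holds the fold of 4.49. Without that chain 25 remain. Developmental transcription factors were nearest to 111 peaks (2.78%) and 3.46% of the ground, or 8.74 per Mb (95% Poisson interval 7.19 to 10.5). None of these 111 was in a chain of 6.0 to 6.5 kb. All gene-desert peaks outside such chains had 9.67 per Mb, within that interval. Pou3f2, a neural POU factor gene, had 12 peaks with folds up to 3.31, and the forkhead gene Foxp1 had 7, up to 2.09. Genes of tandem receptor and defence families had 33 peaks (0.827%) on 1.75% of the ground, or 5.14 per Mb (3.54 to 7.22). This list and the neural one were made by the start of the gene symbol. The tandem list also takes in families such as Krt, Prl and Speer, which are neither receptor nor defence genes, so its label covers only part of it. The neural list takes in every symbol starting with Kcn, Cdh or Sema, and Sgcz and Sgcd, so its label is not exact either. The genes of the tandem list with the most peaks were Speer2 and Speer4f2 with 6 each and Defb41, a beta-defensin gene, with 4.

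Pluripotency genes had 17 gene-desert peaks (0.426%) on 0.407% of the ground, or 11.4 per Mb (6.62 to 18.2). Nr5a2, a nuclear receptor gene active in embryonic stem cells, accounted for 12 of them, at 102 to 196 kb and with folds of 1.82 to 3.36. Of these 12, 9 belong to a single chain of close peaks, chr1:137062550-137068745, 6196 bp long. Without that chain Nr5a2 had 3 peaks, and pluripotency genes had 8, or 5.35 per Mb (2.31 to 10.5). Poisson intervals treat peaks as independent, which peaks of a chain are not. Myc had 2 peaks at 415 and 532 kb, both with a fold of 1.86, and Sox2 had 2 at 478 kb, with folds of 2.13 and 2.63. Of the genes of the 2-cell state, the early embryonic programme that NELFA was studied for in this series, 1 was the nearest coding gene of a peak. Zfp352, a zinc-finger gene of that programme, had a single peak at 66.6 kb with a fold of 1.91. Since 22 listed 2-cell genes were in the annotation and only 1 was nearest to any gene-desert ground (0.37 Mb), these peaks carry almost no information on that programme.

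Gene-desert peaks lay close to each other. Another gene-desert peak was within 10 kb of 2682 of them (67.3%), and the median distance to the nearest was 1.88 kb. The share among other peaks of the list is not given here, so this closeness is not shown to be particular to gene deserts. No peak of any kind lay within 10 kb of 1285 gene-desert peaks (32.2%). These lone peaks had a median fold of 2.04, and 10.1% reached a fold of 3, against 9.8% of all gene-desert peaks. A fold of at least 5 was reached by 23 of the 1285, against 54 of all 3988 gene-desert peaks (1.35%) and 2.92% of autosomal peaks. The highest fold of all, 19.3, was that of a lone peak. A further 1813 (45.5%) had company within 10 kb without being in a chain of 5 or more gene-desert peaks linked by gaps of up to 3 kb, and 7.83% of these reached a fold of 3. The 890 peaks in such chains formed 122 chains.

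The lengths of the chains piled up at a single size. Of the 122 chains, 55 (45.1%) spanned 6.0 to 6.5 kb, while the neighbouring classes of 5.5 to 6.0 and 6.5 to 7.0 kb held 8 and 5. Within the 55, 47 spanned 6.0 to 6.3 kb, and their median was 6201 bp. They lay on 18 of the 19 autosomes and held 438 gene-desert peaks, with 5 to 13 peaks each. Peaks covered 13.9 to 74.5% of a chain's length, with a median of 50.8%. The size class was picked after the lengths had been seen.

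Within these 55 chains the signal was higher at the ends. Peaks with summits in the outer 1 kb had a median fold of 2.75, and 64 of 170 (37.6%) reached a fold of 3. Peaks in the middle had a median of 2.09, and 6 of 268 (2.24%) reached 3. The strongest peak was an end peak in 44 of the 55 chains, and both ends exceeded the median of the middle in 45. In the other 67 chains the strongest peak was at an end in 53 (79.1%). That share is not like for like, because chains as short as 1644 bp were among them. End peaks made up 48.0% of the peaks of those 67 chains, against 38.8% in the 55. Of their end peaks 16.6% reached a fold of 3, against 5.53% of middle peaks, while the medians of end and middle peaks were both 2.13. The chain with the most peaks, chr17:93017111-93023260, was 6150 bp long and held 13 peaks with folds from 1.86 to 3.45, the highest at its far end. The chain chr11:8076610-8082729 (6120 bp) and the chain chr14:96048038-96054161 (6124 bp) held 11 peaks each, and in both the top fold of 3.27 was at the first peak.

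The same length recurred in other positions of sparse windows. Chains of 6.0 to 6.5 kb made up 109 of 254 chains (42.9%) in gene interiors and 113 of 300 (37.7%) at 1 to 50 kb from genes, with median spans of 6207 and 6213 bp. End peaks had median folds of 3.09 and 2.81 there, against 2.18 and 2.13 in the middle. In dense windows the length class held 10 of 36 desert chains (27.8%), with medians of 2.84 at the ends and 2.13 in the middle. It held 8.28% of chains in interiors there, 10.0% at 1 to 50 kb and 2.86% at gene ends, and 0 of the 4 chains at gene ends in sparse windows. The recurring length was therefore not confined to gene deserts. What lies under these chains was not tested, since no genome sequence or repeat annotation was used.

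**Figure D5:**
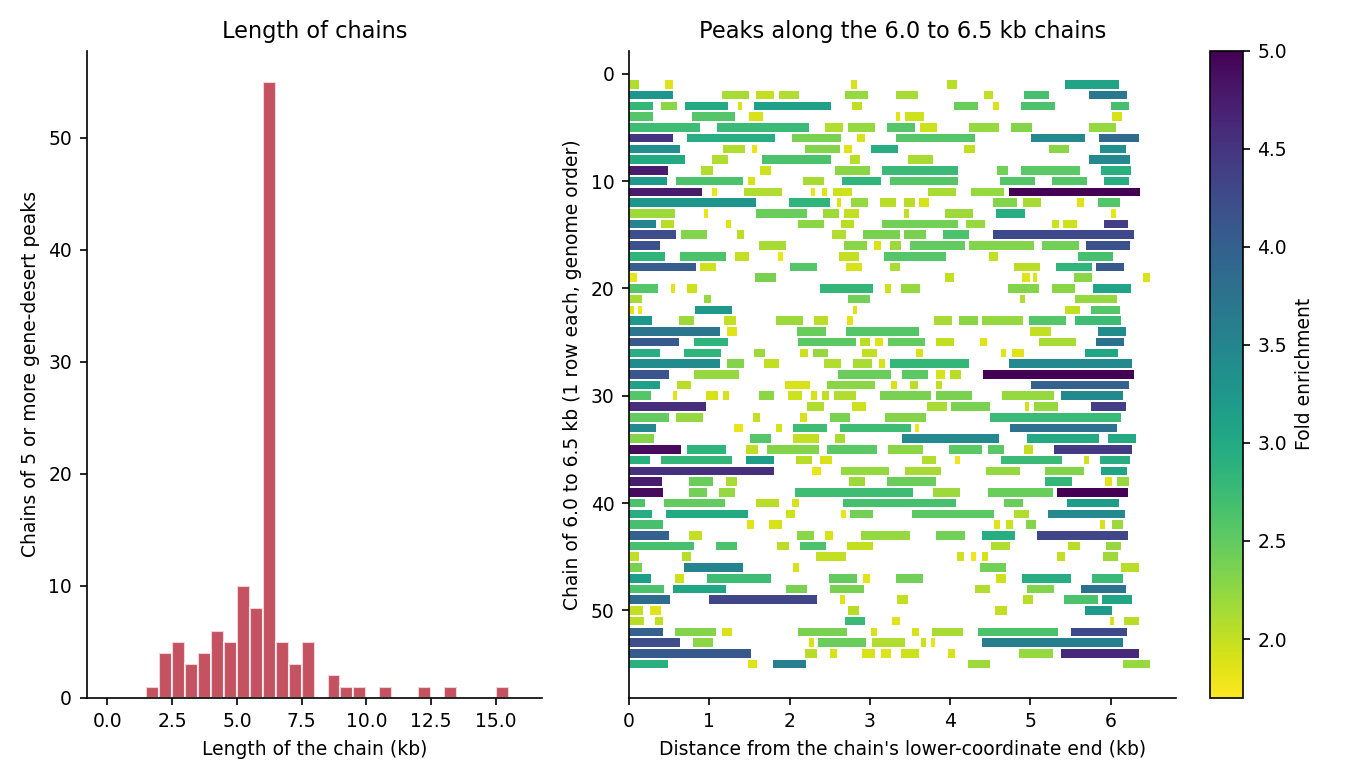
Left, lengths of the 122 chains of 5 or more gene-desert peaks in classes of 0.5 kb; right, the peaks of each of the 55 chains of 6.0 to 6.5 kb, placed by distance from the lower-coordinate end (kb) and coloured by fold enrichment. The 6.0 to 6.5 kb class stands alone on the left, and dark, high-fold peaks gather at both ends on the right, where the median is 2.75 against 2.09 in the middle.

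Longer clusters and wide peaks were few. Linking peaks over gaps of up to 10 kb, the largest run was chr14:124779924-124802218, with 19 peaks in 22.3 kb and folds from 1.91 to 9.24. It lies beyond Fgf14 at the end of the chromosome and includes the peak with a pileup of 14394. The run chr18:85034992-85053483 had 18 peaks in 18.5 kb, 53.5 kb from Fbxo15, with folds from 1.82 to 4.27, and makes up most of the 19 peaks of its desert. The 59 peaks of at least 1 kb had a median fold of 3.72, and 44 reached 3. Of these 59, 57 were under 2 kb, 54 had another peak within 10 kb and 23 were in chains of 6.0 to 6.5 kb. The widest, chr15:33831523-33838396, covered 6874 bp as 1 interval with a fold of 5.76, 148 kb from Tspyl5. It was followed by chr4:20938902-20941940, 3039 bp wide with a fold of 5.45.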

How the data were processed

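The data were 1 list of peaks from the ChIP libraries. The submitters' processing notes name MACS2 (without a version), Bowtie2 2.2.9, SAMtools 1.4, Trim Galore 0.4.2 and the mm10 build. Not given in the sources used here are the way libraries were combined, the peak-call settings, the treatment of reads with several alignments, and what the tags R1234 and MAPQ0 in the peak names mean. The deposited fold enrichment is a linear ratio that the authors' peak caller gave per peak. The deposited −log10 values are of the caller's p-value and q-value, and the lowest −log10 q was 1.31.

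Summits came from the deposited offsets, and genes from RefSeq GRCm38.p6 (47042 autosomal, 20665 protein-coding). Ground was measured every 100 bp. Shares carry 95% Wilson and densities 95% Poisson intervals, for counting error only. Pileup and background were solved from fold and p, with tolerances of 0.002 steps and 0.1 in −log10 p. Read depth is unknown.

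The members and gene lists were chosen with earlier results of these data known, and the chains, their length class and the comparison of ends after seeing the data. Genes are named where they flank the 12 strongest peaks, the 5 deserts with most peaks, the 5 densest large deserts or the 3 farthest peaks, and for the top 3 per list. Some items that this rule selects are not reported here. Vmn2r-ps1 and Tspyl5 were named after their values were seen. Alternatives changed the window limit, the distance, the gene set, the summit rule, the window offset, the q-value limit and the chromosomes used. The assignment of peaks to gene deserts and sparse windows was tested on planted positions. The chains, pileups, backgrounds and measured ground were not tested in this way. Versions were scipy 1.17.1, pandas 2.3.3, numpy 2.4.6, matplotlib 3.10.9 and Python 3.11.15.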

Additional observations from a re-analysis of the deposited data

How the results depend on the processing

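Of 9 alternative settings, 8 moved the median fold (2.09) and the share with a fold of at least 3 (9.8%) by less than their 95% intervals. A −log10 q of at least 4 left 1464 peaks, a median fold of 2.59, 26.7% at fold 3, 3.99 per Mb and 47.3% with another within 10 kb. Distances of 25 and 100 kb gave 6235 and 1909 peaks, at 11.4 and 9.63 per Mb. Protein-coding genes alone as the reference gave 8732 peaks. A window limit of 20 peaks gave 9.4 per Mb and 64.5% with another within 10 kb, and leaving out chromosomes 6 and 8 gave 69.0%. Alternatives added after seeing the data kept the 6.0 to 6.5 kb class between 33.3 and 41.5% of chains (38 to 59 chains) with links of 2 or 5 kb or 4 peaks as the minimum, and gave 34 chains (69.4%) with a minimum of 8 peaks. Without the peaks of these chains, 9.04% reached a fold of 3. Pluripotency genes then had 8 peaks in place of 17, and the list labelled neural adhesion and synapse 754 in place of 795. No paired analysis was possible because the list has no column per library and no result comes from a test. Replicate spread, an uninduced control, read depth, assembly gaps and repeats limit all values.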
